A study of Mus musculus with 4 samples.

Results

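Gamma-delta T cells are T lymphocytes whose antigen receptor pairs a gamma chain with a delta chain, in place of the alpha and beta chains of most T cells. A set of 323 such cells was described here among 19892 kept cells of a single-cell RNA-seq matrix of mouse lung tumors. They made up 1.62% of the kept cells (exact binomial 95% interval 1.45 to 1.81) and 6.47% (5.81 to 7.19) of the 4989 cells with T cell genes that were set apart below. Members were selected on measured values. A member had at least 1 UMI (a counted RNA molecule) of Cd3d, Cd3e or Cd3g, which encode the CD3 chains of every T cell receptor, and at least 1 UMI of Trdc, the constant region of the delta chain. It had no UMI of Cd4, Cd8a, Cd8b1, Foxp3 (the regulatory T cell factor), Ncr1 or Klre1 (natural killer receptors) or Cd79a (B cell receptor), and at most 2 UMIs of the macrophage genes C1qa, C1qb and C1qc together. Kept cells had at least 200 detected genes and at most 13.4% of their UMIs from mitochondrial genes.

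The matrix came from lung tumors of 4 mice in 2 groups of 2, all labelled female. Every mouse carried a Cre-activated oncogene and Lkb1XTR/XTR, so that Cre both started tumor growth and trapped both copies of Lkb1 (gene symbol Stk11) with a GFP-expressing cassette. At Rosa26, Non-Restored mice had LSL-tdTomato only, and Restored mice had LSL-tdTomato on one chromosome and FLPo-ERT2 on the other, the tamoxifen-activated recombinase that removes the trap. Tumors were started with intratracheal Lenti-Cre and grown for 16 weeks, and all samples were labelled as given tamoxifen, in 4 mg doses in corn oil, in the 2 weeks before harvest, although the series text also names vehicle. The Rosa26 recombinase was not limited to tumor cells, and Cre delivered to the airways can reach cells other than epithelium. Viable cells were sorted from microdissected tumors with no gate for T cells. The deposited matrix holds the cells of all 4 mice with no map from cell to mouse, so it counts as 1 sample: Restored and Non-Restored gamma-delta T cells could not be compared, barcodes shared between libraries could not be counted, and no difference below has a test. Levels are UMIs of a gene per 1000000 UMIs (CPM) summed over the cells of a group, with exact Poisson 95% intervals. Intervals on levels and shares cover counting error only, not differences between mice.

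Gamma-delta T cells are common in barrier tissues, the lung among them, and many leave the thymus already committed to one kind of cytokine. Those committed to interleukin-17 (type 17) answer interleukin-1 and interleukin-23 without prior antigen contact, and draw neutrophils through IL-17A. Those committed to interferon-gamma (type 1) depend on T-bet, encoded by Tbx21, and share killing genes with natural killer (NK) cells. In mouse lung tumors gamma-delta T cells are known as a source of IL-17.

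The promoters of genes that set these cells apart are shown because the nuclear receptor encoded by Rora, a gene of the type 17 list, binds DNA at sites built on AGGTCA, so the places where these letters occur can be read beside the levels given below. Each line holds the 250 bases before a transcription start in RefSeq, build GRCm38.p6 (mm10), read 5′ to 3′ on the gene's strand, with AGGTCA or its other-strand form TGACCT in capitals. Il17a (chr1:20730655-20730904, + strand) encodes the cytokine IL-17A and Il17f (chr1:20784271-20784520, - strand) its relative IL-17F. Il23r (chr6:67491856-67492105, - strand) encodes the interleukin-23 receptor. Cd163l1 (chr7:140218017-140218266, + strand) and 5830411N06Rik (chr7:140247051-140247300, + strand) are neighbouring genes that encode the scavenger receptors SCART1 and SCART2 of gamma-delta T cells.
Il17a: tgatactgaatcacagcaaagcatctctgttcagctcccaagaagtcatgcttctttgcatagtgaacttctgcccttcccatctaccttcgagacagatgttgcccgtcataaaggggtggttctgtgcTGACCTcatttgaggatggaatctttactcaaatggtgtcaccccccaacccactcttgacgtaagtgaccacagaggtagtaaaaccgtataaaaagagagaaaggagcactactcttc
Il17f: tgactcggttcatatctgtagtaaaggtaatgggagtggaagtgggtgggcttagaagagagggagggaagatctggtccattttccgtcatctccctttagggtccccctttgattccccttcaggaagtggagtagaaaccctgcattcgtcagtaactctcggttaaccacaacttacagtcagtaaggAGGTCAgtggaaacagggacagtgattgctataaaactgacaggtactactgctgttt
Il23r: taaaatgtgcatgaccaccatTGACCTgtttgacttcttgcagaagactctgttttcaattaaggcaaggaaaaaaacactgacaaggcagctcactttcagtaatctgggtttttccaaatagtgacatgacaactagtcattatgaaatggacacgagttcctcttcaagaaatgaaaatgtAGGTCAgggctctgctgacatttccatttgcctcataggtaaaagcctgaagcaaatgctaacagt
5830411N06Rik: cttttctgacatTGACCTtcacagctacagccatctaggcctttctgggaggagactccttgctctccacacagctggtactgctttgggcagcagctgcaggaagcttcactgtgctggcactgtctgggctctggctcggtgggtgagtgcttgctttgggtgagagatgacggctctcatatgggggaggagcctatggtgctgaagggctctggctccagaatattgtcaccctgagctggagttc
Cd163l1: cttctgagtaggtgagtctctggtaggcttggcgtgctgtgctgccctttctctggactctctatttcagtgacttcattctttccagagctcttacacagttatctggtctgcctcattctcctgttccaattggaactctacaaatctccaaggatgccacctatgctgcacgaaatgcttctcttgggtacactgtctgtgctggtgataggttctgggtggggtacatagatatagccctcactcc
The Il17a window holds the motif once, 120 bases before the start on the other strand, and the Il17f window once, 58 bases before the start on the printed strand. The Il23r window holds it at 2 places, on both strands. Of 3 windows listed for 5830411N06Rik, the one shown holds it and the other 2 do not, and the Cd163l1 window holds none. Among genes of a type 17 list described below, 17 of 21 had a window, and 5 of their 24 windows (20.8%) held the motif on either strand, those of Ccr6, Il17a, Il17f, Il23r and 5830411N06Rik. In a type 1 and cytotoxic list, 1 of 19 windows (5.26%), that of Ccl3, held it. Of all 32851 windows in the table, 4607 (14.0%) did. A match is a description of these letters and not a bound site.

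The label was first checked against the receptor genes. Trdc itself chose the members and is not a result: 458 kept cells had a Trdc UMI, 367 of them also had a CD3 UMI, and 44 of these were left out by another gene of the rule. At the edge of the rule, 136 members had a single Trdc UMI and 187 had 2 or more, with a highest value of 13. Members with 1 Trdc UMI had a Cd163l1 UMI in 21.3% of cells and a Trac UMI (alpha chain constant region) in 8.82%, against 38.0% and 6.95% of members with more. Just outside, 13 cells were left out for Ncr1 or Klre1 alone, and of these 12 had Nkg7, 11 had Ccl5 and none had Cd163l1 or Il17a. Another 43 cells with Trdc lacked only a CD3 UMI, and of these 11 had Blk, 9 had Cd163l1 and 11 had Ccl5.

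RNA free in the droplets gives UMIs to cells that do not express a gene, so Trdc was read in cells that should lack it. Of 2026 B cells, 2 (0.0987%) had a Trdc UMI, as did 0.124% of 2414 C1q macrophages, whose median depth was 4342 UMIs. B cells had a median of 1401 UMIs, gamma-delta T cells 1606 (range 529 to 8960), other T cells 1650 and NK cells 1180.5. Among NK cells 7.65% had a Trdc UMI, and with each cell thinned to 1000 UMIs (369 of 536 NK cells deep enough) 5.96% (3.77 to 8.89) had, against 0 of 1715 B cells and 0.0418% of macrophages. NK cells therefore carried Trdc RNA above the share in B cells. The rule takes a cell without Ncr1 and Klre1 UMIs and with a CD3 UMI, and how many NK cells pass it was not tested.

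Other T cells and NK cells served for comparison. Other T cells were 4666 kept cells that had CD3 and lacked Trdc, Ncr1, Klre1, Cd79a and C1q genes over the same limits: 614 with Cd4, 784 with Cd8, 269 regulatory T cells with Foxp3, and 2962 with no UMI of Cd4, Cd8 or Foxp3, the remainder having Cd8 together with Cd4 or Foxp3. NK cells were 536 kept cells with Ncr1 or Klre1 and without CD3. Differences are log2 ratios of CPM + 10, and a gene was called higher or lower past 2-fold, among genes that reached 50 CPM in either group and took no part in the rule. Over other T cells, 2600 genes reached that level, of which 3.92% were higher and 3.62% lower, with a median log2 ratio of 0.06. Over NK cells, 2990 genes reached it, of which 6.79% were higher and 9.36% lower, with a median of -0.20.

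The gamma-delta T cells carried RNA of the other gamma and delta receptor genes. The 15 listed genes outside the rule summed to 1119 CPM (1035 to 1208) in gamma-delta T cells, 75.6 in other T cells and 56.3 in NK cells, that is 14.8-fold and 19.9-fold higher. The 5 that reached the level, Trdv4, Tcrg-C1, Tcrg-C2, Tcrg-C4 and Trgv2, were all higher over both comparison groups. The median log2 ratio was 2.89 for the 5 and 1.31 for all 15 over other T cells, and 3.50 and 1.68 over NK cells. A delta variable segment is spliced to Trdc in 1 transcript, so Trdv genes are not independent of the rule, while gamma genes are read from another chromosome.

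Of the delta variable genes Trdv4 (chr14:54074905-54075515), upstream of Trdc (chr14:54142851-54148868), was the most often detected, in 82 members. Its level was 285 CPM (244 to 332) in gamma-delta T cells, 3.06 in other T cells and 16.1 in NK cells. Trdv5 was found in 12 members (22.1 CPM), and Trdv2-2 had 5.09 CPM in gamma-delta T cells against 29.5 in NK cells. Trdv4 is the segment used by the Vγ6 cells that settle in lung, skin and other tissues before birth. Its partner segment Tcrg-V6 (chr13:19190356-19190929) was found in 23 members at 45.8 CPM (30.2 to 66.7), against 0.317 in other T cells and 0 in NK cells. Tcrg-V4, the segment of another IL-17 producing population, was found in 12 members (22.1 CPM).

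The gamma constant genes were higher as well. Tcrg-C1 (chr13:19214103-19217024) stood at 370 CPM (323 to 423) in gamma-delta T cells, in 136 members, against 23.5 in other T cells and 1.34 in NK cells. Tcrg-C4 (chr13:19344558-19352756) stood at 139 CPM (111 to 173) against 10.1 and 6.70. Tcrg-C2 (chr13:19304649-19307551, on the opposite strand) stood at 81.5 CPM (60.1 to 108) against 12.5 and 1.34. Transcripts of Tcrg-C1 and Tcrg-C2 share 96.2% of 909 aligned bases, so reads could be split between these genes or lost, and their separate levels are uncertain. Counting the 3 genes together, 149 members had a UMI of 1 of them, 39 of 2, 4 of all 3 and 131 of none.

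RNA of the alpha chain was low in gamma-delta T cells and RNA of the beta chain was not. Trac (chr14:54220521-54224206) stood at 54.3 CPM (37.2 to 76.7), in 25 members (7.74%), against 292 in other T cells, where 38.8% of cells had a UMI. Thinned to 1000 UMIs, 4.38% of gamma-delta and 25.2% of other T cells had Trac, against 0.247% of B cells, unthinned. Trbc1 (309 against 409 CPM) and Trbc2 (414 against 595) lay within 2-fold. Trbc1 and Trbc2 share 87.7% of their bases, and their split is uncertain too. The 3 genes summed to 0.600 of the level in other T cells, and 1 of 3 was called lower, with a median log2 ratio of -0.51.

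**Figure D1:**
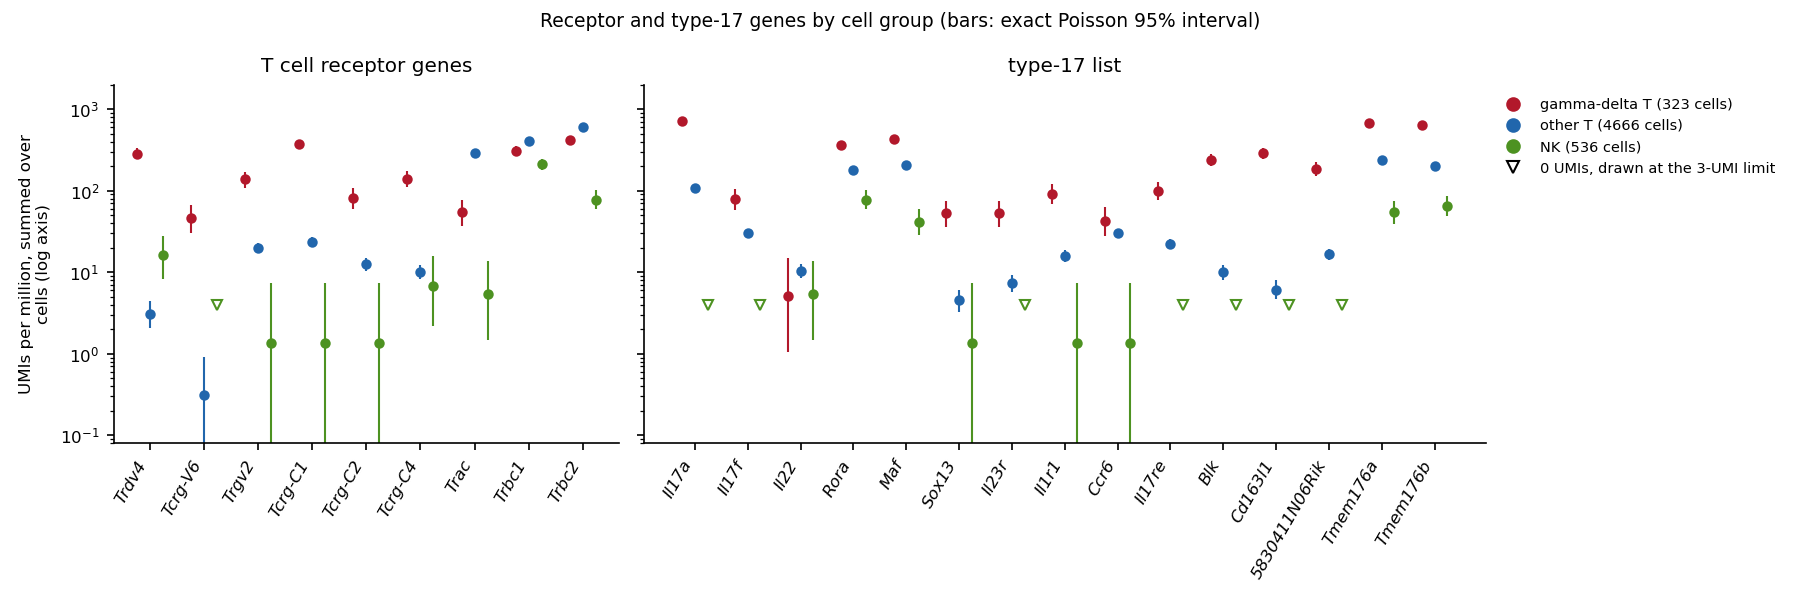
Levels of receptor genes (left) and of type 17 genes (right) in CPM on a log axis, with points for the summed cells of each group and bars for exact Poisson 95% intervals. Gamma-delta T cells (red) lie above other T cells (blue) for Trdv4, Tcrg-C1 and Cd163l1 and below them for Trac, and open triangles mark genes with 0 UMIs, drawn at the limit that 3 UMIs would give.

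Genes of T cell receptor signaling were divided. Of 12 listed genes outside the rule, 5 were lower than in other T cells and none was higher, with a median log2 ratio of -0.20. The 5 were the adhesion receptor Cd2 (44.1 against 227 CPM), the receptor brake Cd5 (3.40 against 102.5, in 2 members), its relative Cd6 (11.9 against 82.0), the costimulatory receptor Cd28 (25.5 against 228) and the kinase Lck (45.8 against 216). The rest were within 2-fold, among them the CD3-zeta chain Cd247 (175 against 124), the kinase Zap70 (84.9 against 60.6), the adaptor Lat (243 against 216), Thy1 (346 against 218) and the T cell factor Bcl11b (172 against 138). Over NK cells, 5 of 10 that reached the level were higher and 3 lower.

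Most type 17 genes were higher in gamma-delta T cells than in other T cells. Of 21 listed genes 19 reached the level, and 17 of these were higher and none lower, with a median log2 ratio of 1.76 (1.62 for all 21), beside 0.06 for all genes. The list was chosen with earlier results of these data known, so these counts describe the cells and are no independent check. The list summed to 5018 CPM (4839 to 5203) in gamma-delta T cells and 1545 in other T cells, 3.25-fold higher. Among other T cells the sum was 1848 CPM in those with no Cd4, Cd8 or Foxp3, 1556 in CD4 cells, 1427 in regulatory cells and 628 in CD8 cells. Over NK cells, at 342 CPM, the sum was 14.7-fold higher and 19 of 19 genes were higher, with a median of 3.11, or 3.16 with the 7 genes at 0 in NK cells taken at a floor of 3 UMIs over that group (4.02 CPM). At least 1 UMI of the list was found in 290 members (89.8%), with a median of 8 UMIs a cell.

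Of the cytokines, Il17a (chr1:20730905-20734496) was the highest over other T cells. It stood at 716 CPM (650 to 788) in gamma-delta T cells, 108 in other T cells and 0 in NK cells, at least 178-fold higher than the NK floor. Its UMIs lay in 88 members (27.2%), and 33 of these cells held 78.0% of them. Thinned to 1000 UMIs, 20.2% of gamma-delta T cells had Il17a against 4.28% of other T cells, 0 of 1715 B cells and 0.0418% of macrophages. Il17f (79.8 against 30.4 CPM) was found in 28 members and reached 2-fold, while Il22 was near its floor (5.09 against 10.4). Of 6 genes of a wider cytokine list that reached the level, Il17a, Il17f and Tnf (158 against 62.2) were higher and none lower.

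Most transcription factor and receptor genes of the list were higher too. Sox13, a factor of gamma-delta thymocytes, stood at 52.6 against 4.54 CPM, and Maf, which is needed for IL-17 producing gamma-delta cells, at 430 against 205. The nuclear receptor gene Rora (360 against 177 CPM, log2 ratio 0.98) fell just short of 2-fold. The interleukin-23 receptor Il23r stood at 52.6 CPM, in 26 members, against 7.29, and the interleukin-1 receptor Il1r1 at 91.7, in 49 members, against 15.7. The IL-17 receptor subunit Il17re (100.2 against 22.1 CPM) and the leukotriene B4 receptor Ltb4r1 (119 against 49.2) were higher as well, while the chemokine receptor Ccr6 (42.4 against 30.2) was under the level set for a call. Ramp1, a subunit of the receptor for the neuropeptide CGRP, had 506 against 310 CPM, within 2-fold.

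Surface and enzyme genes of the list gave its widest ratios. Cd163l1 (chr7:140218267-140231145) stood at 289 CPM (247 to 335), in 100 members, against 6.13 in other T cells and 0 in NK cells, at least 71.8-fold over the NK floor. Blk (chr14:63372836-63417037), a Src-family kinase first known from B cells, stood at 238 CPM, in 99 members, against 10.0 and 0. Thinned to 1000 UMIs it was found in 21.2% of gamma-delta T cells, 1.09% of other T cells and 9.97% of B cells. 5830411N06Rik (chr7:140247284-140300736) stood at 185 CPM (152 to 223), in 76 members, against 16.7 and 0. The membrane proteins Tmem176a (681 against 234 CPM) and Tmem176b (645 against 203), the protease inhibitor Serpinb1a (175 against 44.7), the creatine kinase Ckb (126 against 37.9) and the water channel Aqp3 (50.9 against 11.2) were also higher.

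Gamma-delta T cells did not hold most of the Il17a RNA in the matrix. Of 1642 Il17a UMIs in kept cells, 25.7% lay in gamma-delta T cells, 47.6% in T cells without Cd4, Cd8, Foxp3 or Trdc, 11.0% in CD4 cells, 2.62% in CD8 cells and 13.0% in all other kept cells. Of 409 Il17f UMIs, 11.5% lay in gamma-delta T cells and 50.9% in T cells without those genes. By contrast 68.6% of 245 Trdv4 UMIs, 63.9% of 266 Cd163l1 UMIs and 27 of 34 Tcrg-V6 UMIs lay in gamma-delta T cells. Other such genes did not follow: gamma-delta T cells held 42.6% of Tcrg-C1, 35.6% of 5830411N06Rik, 30.9% of Tcrg-C4, 25.1% of Trgv2 and 24.1% of Tcrg-C2 UMIs. In the same order, T cells without Cd4, Cd8, Foxp3 or Trdc held 39.3%, 45.8%, 34.3%, 55.4% and 55.8%. Blk UMIs lay mostly (65.8%) in other kept cells, B cells included. In T cells without Cd4, Cd8, Foxp3 or Trdc the level of Il17a was 140.2 CPM, of Tcrg-C1 36.0, of Cd163l1 9.86 and of Trdv4 5.20, while CD4 cells had 140.5 of Il17a, 6.21 of Tcrg-C1 and 0 of Cd163l1. A Trac UMI was found in 35.2% of the former, and how many of them are gamma-delta T cells whose Trdc RNA was missed was not tested.

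**Figure D2:**
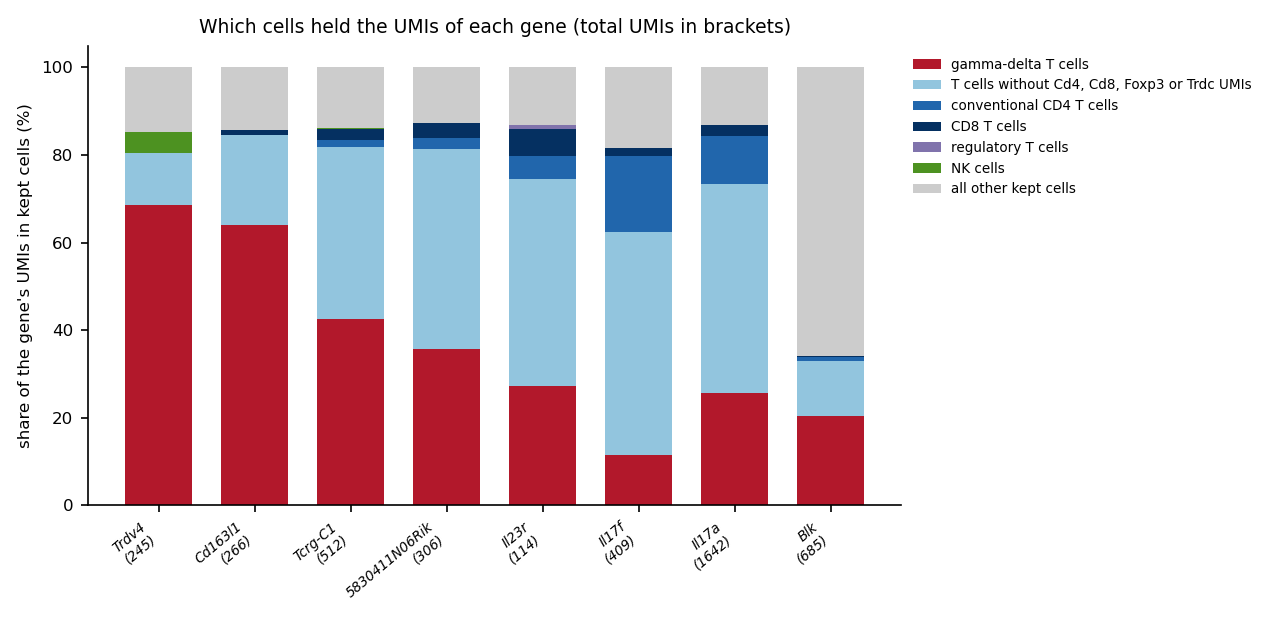
Share of each gene's UMIs in kept cells (vertical axis, percent, with the total in brackets) held by each kind of cell. Gamma-delta T cells (red) held 68.6% of Trdv4 UMIs but 25.7% of Il17a UMIs, and T cells without Cd4, Cd8, Foxp3 or Trdc (light blue) held 47.6% of the latter.

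The genes with the largest ratios over other T cells that were not yet named were few. Abi3bp, an extracellular matrix binding protein, stood at 146 against 8.14 CPM (log2 ratio 3.11), with 86 UMIs over 67 members. Kcnk1, a potassium channel subunit, stood at 91.7 against 7.71 CPM (2.52) in 43 members. Klrk1, which encodes the activating receptor NKG2D, stood at 231 CPM in 82 members against 34.7 (2.43), and at 634 in NK cells. BC100530 owed its log2 ratio of 3.07 to 1 cell, with 64 of its 67 UMIs, and had 0.03 without it. The chemokine Ccl4 (452 against 71.9 CPM, 2.50) was found in 11 members, and 1 of them held 168 of 266 UMIs, so that the ratio was 1.11 without that cell. A second cell held 64 of the 98 UMIs left, so the call rested on few cells.

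**Figure D3:**
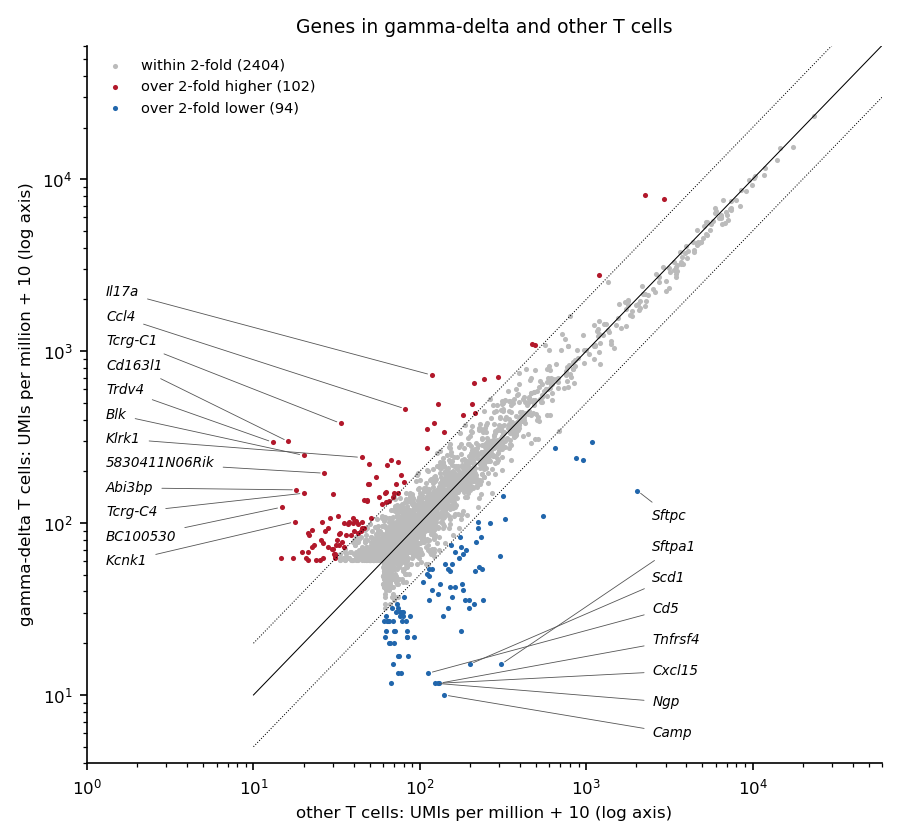
Levels in gamma-delta T cells (vertical) against other T cells (horizontal), both as CPM + 10 on log axes, for 2600 genes that took no part in the rule. The 102 red genes were over 2-fold higher and the 94 blue genes over 2-fold lower, with dotted lines at 2-fold and names on the widest ratios.

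The genes with the lowest ratios were mostly those of other cells. Sftpa1 (5.09 against 298 CPM, log2 ratio -4.35), Sftpc (144 against 2018, -3.72) and Cxcl15 (-3.47) are made by lung epithelium, Scd1 (5.09 against 189.5, -3.72) makes unsaturated fatty acids, and Camp (0 against 130.3, at least 25.6-fold lower) and Ngp (1.70 against 114, -3.41) are granule genes of immature neutrophils. Of 85 Sftpc UMIs in gamma-delta T cells, 56 lay in 1 member, and a single other T cell held 54.3% of the Camp UMIs and 52.1% of the Ngp UMIs. With cells of at least 2 TdTomato UMIs left out of both groups, the ratio was -0.72 for Cxcl15 and -0.39 for Scd1, both then within 2-fold, and -1.31 for Sftpa1 and -1.27 for Sftpc. Against the other T cells with Cd4, Cd8 or Foxp3 only, Camp had 0 and Ngp -0.40. The T cell genes among the lowest were Cd5 (-3.07) and the costimulatory receptor Tnfrsf4, also called OX40 (1.70 against 120.5 CPM, -3.48).

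Marker lists of other cells were summed beside these results. The 6 epithelial genes summed to 213.9 CPM in gamma-delta, 2706 in other T and 1681 in NK cells, and 5 of 5 that reached the level were lower than in other T cells. A single gamma-delta T cell held 84 of the 126 UMIs, and the sum was 72.4 CPM without it. TdTomato, the Cre reporter, was read with this list and stood at 224, 344 and 280 CPM. Macrophage genes summed to 584, 2150 and 2536 CPM, with Fabp4 and Marco at 0 in gamma-delta T cells, and 2 of 2 were lower. Neutrophil genes summed to 2956, 3063 and 1439 CPM, with 460 of 831 S100a8 UMIs of the gamma-delta T cells in 1 cell, and 0 of 4 was called. Dendritic cell genes summed to 391, 982 and 1516 CPM with Xcr1 and Flt3 at 0, and 3 of 4 were lower. B cell genes (47.5, 64.8 and 40.2 CPM, with Ms4a1 at 0), endothelial genes (32.3, 158 and 61.7, with Cdh5 at 0) and genes of group 2 innate lymphoid cells (69.6, 231 and 111, with Il5 and Arg1 at 0) were low. Mast cell and basophil genes (30.6, 0.951 and 6.70 CPM, with Ms4a2 at 0) came from 2 members. The part of these cells' RNA in the results was not tested.

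Gamma-delta T cells had less of some genes of naive and recirculating T cells and more of some tissue and homing genes. Of 9 listed naive and recirculating genes, 5 were lower than in other T cells and none higher, with a median log2 ratio of -1.46, and the list summed to 946 against 1800 CPM, 0.526-fold. Regulatory cells had a lower sum than gamma-delta T cells, at 493.5 CPM. The sum was 2538 CPM in CD8 cells, 1785 in T cells with no Cd4, Cd8 or Foxp3 and 1647 in CD4 cells. Among the 5 were the lymph node homing receptor Ccr7 (22.1 against 187), the factor Lef1 (42.4 against 142), Igfbp4 (18.7 against 127) and Dapl1 (32.3 against 142). Of 19 tissue and homing genes 15 reached the level, and 7 were higher and none lower, with a median of 0.99 (0.80 for all 19). S100a6, a calcium-binding protein, stood at 8140 CPM (7911 to 8374) in 295 members against 2250. Its relative S100a4 (1087 against 460 CPM), the galectins Lgals1 (2757 against 1187) and Lgals3 (1076 against 484), the chemokine receptors Cxcr6 (374 against 111) and Ccr2 (143 against 52.5) and the integrin Itgae, also called CD103 (90.0 against 25.0), were the other 6. Cd69 (397 against 257 CPM) of this list and the tissue exit receptor S1pr1 (131 against 218) of the first list lay within 2-fold. Against NK cells Cxcr6 stood highest of the 7 by ratio, at 374 against 10.7 CPM (log2 4.21), while Ccr2 was alike in both (143 and 149).

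Cytokine receptors followed the type 17 genes in part. Of 13 that reached the level, 5 were higher and 2 lower. Il18r1, for interleukin-18, stood at 416 against 171 CPM and Il2ra, the alpha chain for interleukin-2, at 163 against 70.5, beside Il1r1, Il23r and Il17re given above. The receptor Il1rl1 for interleukin-33 (1.70 against 57.2) and Il6ra for interleukin-6 (10.2 against 56.1) were lower. Il7r, for interleukin-7, stood at 1243 against 704 CPM (log2 0.81). Of 8 activation and checkpoint genes that reached the level, Il2ra was higher, and Ctla4 (23.8 against 200.3), Tnfrsf4 and Tnfrsf18 (62.8 against 166) were lower. Cd40lg, the helper T cell ligand, had 0 UMIs against 41.7 CPM (at least 8.20-fold lower), and the costimulator Icos had 289 against 313. The rule left out cells with Cd4 or Foxp3, which other T cells include, so these differences are not independent of the rule. The activation and checkpoint list summed to 3772 CPM in gamma-delta T cells and 6046 in regulatory cells. It summed to 3746 in CD4 cells, 3652 in T cells with no Cd4, Cd8 or Foxp3 and 2500.5 in CD8 cells. Zbtb16, the PLZF factor of innate-like T cells, stood at 57.7 against 9.62 CPM (log2 1.79), the only 1 of 8 genes of innate lymphoid regulators to be higher, with none lower. Cell cycle genes summed to 294 against 413 CPM, and cells thinned to 1000 UMIs with at least 2 such genes were 4 of 297 gamma-delta T cells (1.35%, 0.368 to 3.41) and 2.65% of other T cells.

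Killing genes were lower in gamma-delta T cells than in NK cells. The rule left out cells with Ncr1 or Klre1, the genes that chose the NK cells, so this difference is not independent of the rule. Of 25 listed type 1 and cytotoxic genes 22 reached the level, and 20 were lower and none higher, with a median log2 ratio of -3.00 beside -0.20 for all genes. The list summed to 2236 CPM in gamma-delta T cells and 33789 in NK cells, 0.0662-fold. The granule proteases Gzma (11.9 against 7563 CPM) and Gzmb (25.5 against 1112), the pore former Prf1 (10.2 against 602), the chemokine Ccl5 (596, in 29 members, against 14951) and the granule protein Nkg7 (114 against 2735) were lower. So were Ifng (16.98, in 5 members, against 193 CPM) and the factors Tbx21 (8.49 against 141) and Eomes (3.40 against 185). Also among the 8 lowest ratios were the factor Irf8 (15.3 against 966 CPM), the chymase Cma1 (0 against 323, at least 63.4-fold lower) and the Ly49 receptors Klra4 (5.09 against 429) and Klra7 (3.40 against 315). Fcer1g (95.1 against 2339) and Tyrobp (200.3 against 2875), adaptors of NK receptors, were lower too.

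Over other T cells the same list went the other way for few genes. Of 10 that reached the level, Ccl3, Ccl4 and Klrk1 were higher and none lower, with a median log2 ratio of 0.73 (0.19 for all 25), and the sum was 1.83-fold higher. Not every kind of other T cell was below: CD8 cells had a sum of 2491 CPM, against 2236 in gamma-delta T cells. The sum was 971 CPM in T cells with no Cd4, Cd8 or Foxp3, 815 in CD4 cells and 803 in regulatory cells. Ccl3 (222 against 57.4 CPM) lay in 8 members, with 72 of 131 UMIs in 1 of them and 37 in another. The sum was 1.49-fold higher with the cell of most UMIs left out of each group. Nkg7 had 114 against 139 CPM, Ifng 16.98 against 25.3 and Prf1 10.2 against 9.93. Gzma (11.9 against 27.8 CPM) and Gzmb (25.5 against 14.0) were under the level set for a call and lay in 2 and 4 members. Most Ccl3 and Ccl4 UMIs of the gamma-delta T cells thus lay in a few members.

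Members were then divided by sets of genes from the type 17 list and from the type 1 and cytotoxic list. A member with a UMI of a set of 6 type 17 genes, Il17a, Il17f, Il23r, Cd163l1 and Blk among them, and none of Ifng, Tbx21, Eomes, Nkg7, Gzma or Gzmb was put on the type 17 side, and the reverse on the type 1 side. The type 17 side held 205 members (63.5%, 58.0 to 68.7), the type 1 side 30 (9.29%, 6.35 to 13.0), 5 (1.55%) had both and 83 (25.7%, 21.0 to 30.8) had neither. Of the 30, 26 had Nkg7, 5 had Ifng, 4 had Tbx21, 2 had Eomes, 2 had Gzmb and 1 had Gzma. Nkg7 thus set most of this side, and its name does not show a commitment to interferon-gamma. The shares of the sides depend on the rule. Nkg7 was found in 12 of 13 cells left out for Ncr1 or Klre1 alone and in 3 of 7 left out for Cd8 alone. None of these had Cd163l1, Blk or Il17a. Of 10 cells left out for Cd4 or Foxp3, 3 had Cd163l1 and 1 had Nkg7. The 12 genes used are no results between the sides. Of 658 other genes that reached 200 CPM on either side, 11.2% were over 2-fold higher on the type 17 side and 8.81% lower, with a median log2 ratio of 0.04. The type 1 side holds 61713 UMIs in all, so that 3 UMIs make 48.6 CPM there.

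The receptor genes detected differed between the sides. The listed gamma and delta genes outside the rule summed to 1277 CPM on the type 17 side and 373 on the type 1 side. Trdv4 stood at 369 CPM, in 64 members, on the type 17 side and at 0 on the type 1 side (at least 7.59-fold higher over the floor), with 195 in members with neither. Trdv4 was often found with Cd163l1, as given below, which took part in the division, so its split is not independent of it. Tcrg-C1 stood at 442, 32.4 and 312 CPM on the type 17 side, on the type 1 side and in members with neither. Tcrg-C4 (123, 162 and 148) and Trgv2 (118, 81.0 and 234) were found on both sides. No UMI of Tcrg-V6 or 5830411N06Rik was found on the type 1 side, against 60.2 and 196 CPM on the type 17 side, which over the floor is at least 1.24-fold and 4.04-fold.

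Of the type 17 list outside the division, 6 genes reached 200 CPM on either side, and 6 were higher on the type 17 side. Of 19 tissue and homing genes 12 reached it, and 8 were higher and none lower, with a median log2 ratio of 1.53, while Itgb1, Cd69, Cd44 and Ahnak lay within 2-fold. Maf stood at 529 against 16.2 CPM, Tmem176a at 837 against 32.4 and Serpinb1a at 215 against 0. S100a6 (9627 against 1361 CPM), S100a4 (1280 against 178), Lgals3 (1298 against 211), Cxcr6 (424 against 48.6), Icos (374 against 48.6) and Il7r (1293 against 421) were higher too. Members with neither set lay nearer the type 17 side for most of these, with 297 CPM of Maf, 523 of Tmem176a, 6708 of S100a6, 359 of Cxcr6 and 1570 of Il7r. The actin-capping protein Capg (529, 16.2 and 430 CPM) and the lamin Lmna (304, 16.2 and 180) had the same order.

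The type 1 side was higher for Ccl5 and for several NK receptor and T cell genes. Ccl5 stood at 4634 CPM, in 22 of its 30 members, against 2.62 on the type 17 side, where 1 member had it. Klrd1, a partner chain of NKG2 receptors (421 against 2.62 CPM), the surface protein Ly6c2 (535 against 5.23), the costimulatory receptor Cd27 (324 against 2.62) and Dapl1 (243 against 0, at least 31.0-fold) were higher there. The chromatin organiser Satb1 (324 against 57.6) and Cd2 (211 against 13.1) were higher as well. So were the adaptors of NK receptors, Fcer1g (470 against 34.0 CPM, in 12 members) and Tyrobp (421 against 144, in 7). The naive and recirculating list summed to 1815 CPM (1494 to 2184) on the type 1 side and 712 on the type 17 side, against 1800 in other T cells. How many members of this side are NK cells was not tested. Mast cell and basophil genes reached 162 CPM on the type 1 side, all from 1 of the 2 members named above. The other of the 2 was among members with both sets, where 1 cell held 168 Ccl4 UMIs. Ccl4 (1183 against 5.23) and Ccl3 (648 against 2.62) rested on 1 cell, which held 64 of 73 and 37 of 40 of their UMIs, as did the histone Hist1h1b (227 against 2.62), with all 14 UMIs in 1 cell. Whether the cells with most Ccl3 and Ccl4 are the 2 members with mast cell and basophil genes was not tested.

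**Figure D4:**
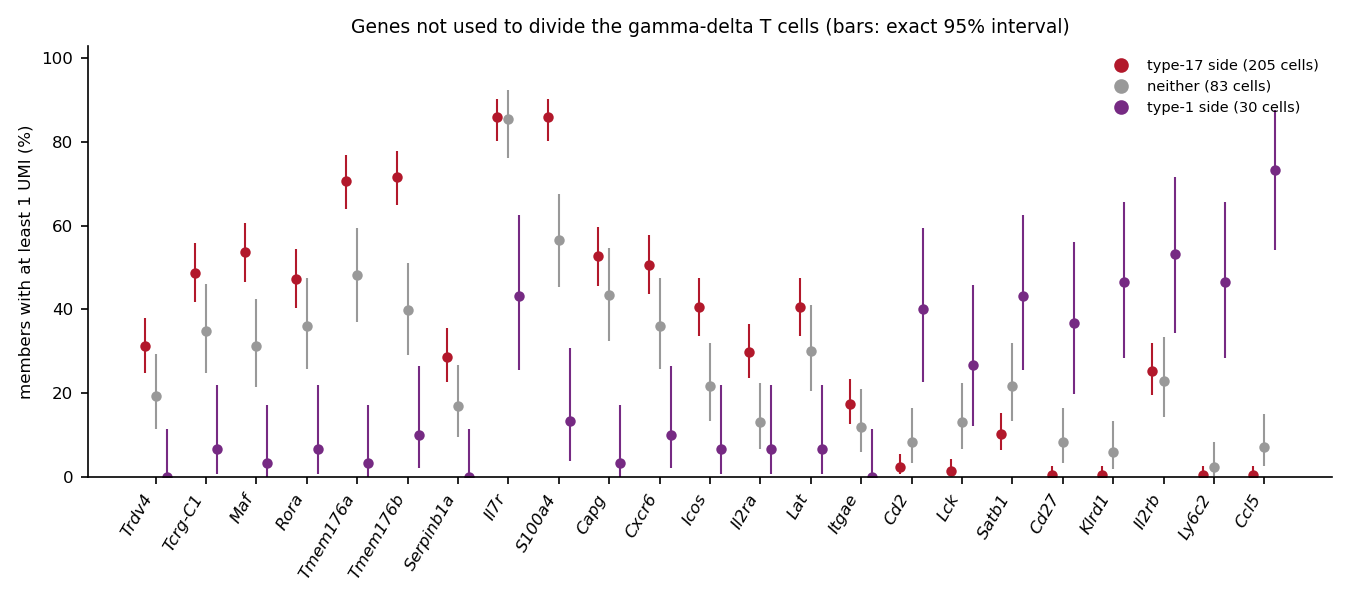
Share of members with at least 1 UMI of a gene (vertical axis, percent, bars for exact binomial 95% intervals) on the type 17 side, on the type 1 side and with neither set. None of the genes shown was used for the division, and Ccl5 was found in 22 of 30 type 1 side members and in 1 of 205 on the type 17 side.

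Within the gamma-delta T cells Trdv4 went with one of the 2 scavenger receptor genes. Of 82 members with Trdv4, 55 (67.1%) had Cd163l1 and 0 had 5830411N06Rik, against 45 (18.7%) and 76 (31.5%) of the 241 members without it. Members with Trdv4 had Tcrg-V6 in 19 cells (23.2%) against 4 (1.66%), and Tcrg-C2 in 2 cells against 35. They had Cxcr6 in 58.5% against 38.6%, Il1r1 in 28.0% against 10.8% and Ccl5 in 0 cells against 29. S1pr1, the receptor by which T cells leave tissues, was found in 3 (3.66%) against 56 (23.2%). Il17a was found in 29.3% of the 82 members with Trdv4 and in 64 of the 241 without, while Il17f was found in 1 of the 82 and in 27 of the 241. Median depth was alike, at 1595.5 and 1620 UMIs, and with 1 sample these shares have no test.

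Within the gamma-delta T cells the scavenger receptor genes were rarely found in the same cell. Cd163l1 alone was found in 92 members (28.5%), 5830411N06Rik alone in 68 (21.1%), both in 8 (2.48%) and neither in 155 (48.0%), a division made after their values were seen. Median UMIs were 1809.5, 1617.5, 2039.5 and 1514 in that order, highest in the 8 cells with both and lowest in those with neither. 5830411N06Rik was found in 8 of the 100 members with Cd163l1 and in 30.5% of those without. Outside the members the order was the other way. There it was found in 8 of 55 kept cells with Cd163l1 (14.6%) and in 0.625% of those without. In other T cells it was found in 6 of 36 with Cd163l1 (16.7%) and in 1.99% of those without. Transcripts can be missed in any cell, so a member with neither may belong with either.

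Other genes followed this division. Trdv4 was found in 55 of 92 members with Cd163l1 alone and in 0 of 68 with 5830411N06Rik alone. Tcrg-V6 was found in 15 and 1, Il1r1 in 25 and 3, Ltb4r1 in 35 and 8 and Tcrg-C1 in 56 and 28 (60.9% and 41.2%). Trgv2 (8 and 19 members), Tcrg-C2 (3 and 14) and S1pr1 (7 and 18) were more often found with 5830411N06Rik. Il17a was found in 33 and 25 members, at 735 and 1221 CPM, so both kinds of cell carried it. Blk (34 and 25 members, 37.0% and 36.8%) and Icos (35 and 30, 38.0% and 44.1%) were found in both. So were Klrk1 (25 and 28, 27.2% and 41.2%) and Abi3bp (18 and 20, 19.6% and 29.4%). S100a6 was found in every member of both, and Ccl5, Cd27 and Ly6c2 in no member of either.

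**Figure D5:**
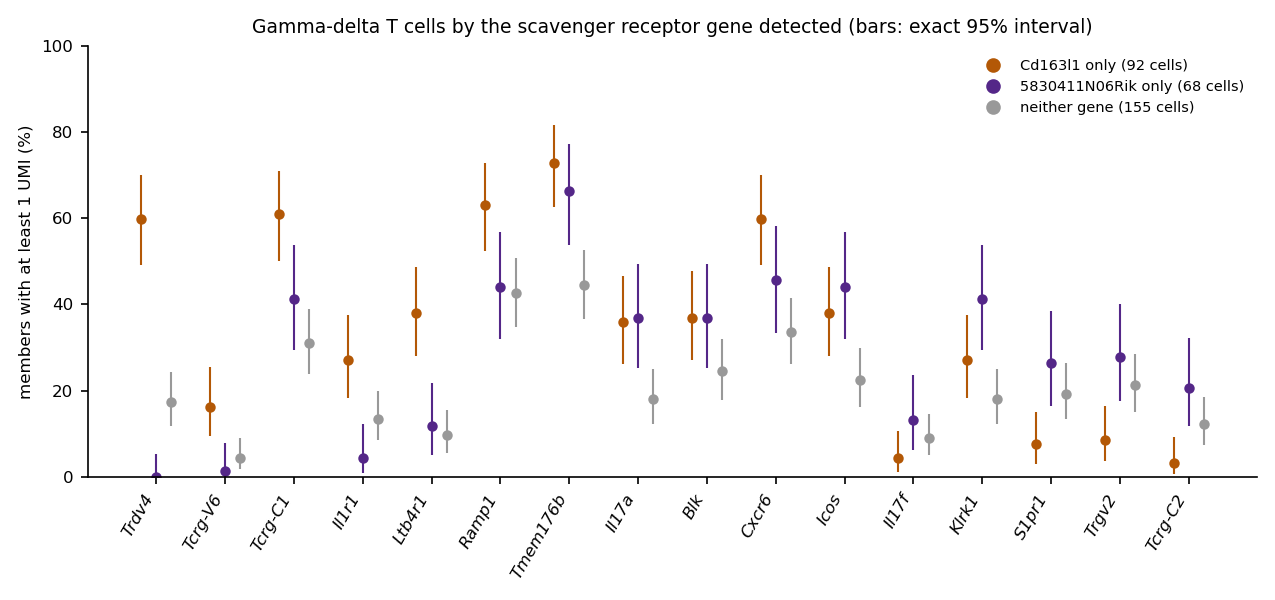
Share of gamma-delta T cells with at least 1 UMI of a gene (vertical axis, percent, bars for exact binomial 95% intervals) among members with Cd163l1 only, with 5830411N06Rik only and with neither gene. Trdv4 was found in 55 of 92 members with Cd163l1 only and in 0 of 68 with 5830411N06Rik only, while Il17a was found in 33 and 25.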

How the data were processed

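Single-cell RNA-seq libraries (10x 3′ kit v3) of sorted lung tumor cells were aligned by the authors with Cell Ranger 3.0.2 to mm10 with GFP and TdTomato added, and the authors deposited 1 pooled matrix of raw UMI counts: 20351 cells, 31055 features, 58624795 UMIs. Kept cells (19892) had at least 200 genes and at most 13.4% mitochondrial UMIs (98th percentile), with a median of 1995 UMIs. Members and gene lists were chosen with earlier results of these data known. UMIs were summed per group and given as CPM with 95% intervals from scipy 1.17.1 (exact Poisson for levels, Clopper-Pearson for shares, on numpy 2.4.6). Log2 ratios used CPM + 10. No count model was fitted, since the cells form 1 sample. The steps were tested on simulated data. Scrublet (scanpy 1.11.5) marked 1.03% of cells as doublets, 1 of them a gamma-delta T cell, and none was removed. Named genes were the 12 highest and 8 lowest ratios over other T cells, the 8 each way over NK cells, and listed genes. Alternatives changed the rule, filters, pseudocount, comparison cells and weight of single cells. Cells positive for tdTomato were kept here, unlike in the study, which dropped those outside the epithelium. A few genes that enter lists, counts or the division into sides are not reported here by name. Receptor paralogs share reads, and their levels are uncertain.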

Additional observations from a re-analysis of the deposited data

Results flagged for a closer look

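TdTomato, the reporter of cells that had met Cre, is a transgene outside the endogenous genes the report compares, which used it only as a marker of cells to leave out and beside the epithelial list. Its level in gamma-delta T cells was 224 CPM, from 132 UMIs in 65 members (20.1%), 49 of them in 1 cell, against 344 CPM in other T cells and 280 in NK cells. It was given here as a feature not otherwise analysed, and it lies above the limit that 3 UMIs set. Thinned to 1000 UMIs, 11.8% of gamma-delta, 15.5% of other T and 15.2% of NK cells had a UMI. The 13 members with 2 or more TdTomato UMIs had 2030 CPM of epithelial genes, against 72.9 in the 258 members with none, but 84 of their 87 epithelial UMIs lay in 1 cell, and the other 12 had 88.5 CPM (18.25 to 258.6). Whether these UMIs come from the cells, from free RNA or from droplets with 2 cells was not tested.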

How the results depend on the processing

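No mouse could be left out, because the matrix does not map cells to mice. No paired analysis was possible because no result comes from a test between groups of samples. Of 109 alternatives to 12 results, 88 gave the same value within the spread allowed, 21 moved and 0 reversed. For a count, that spread was a factor of 1.5. Of 360 alternatives to 38 single genes and shares, 311 were the same, 49 moved and 0 reversed. Counts and shares have no sign, so they could only stay the same or move. The lack of reversals therefore says nothing about them. The single genes were picked for the widest ratios in these same cells. A reversal was thus unlikely from the start, and the lack of 1 is no support for them. With at least 2 Trdc UMIs, members fell from 323 to 187, the type 17 sum rose from 3.25 to 3.64-fold and the type 1 sum from 1.83 to 2.14-fold over other T cells, the type 1 sum was 0.0775-fold that of NK cells (0.0662), the naive sum was 0.403-fold (0.526), and 218 genes differed between the sides in place of 132, 116 higher and 102 lower. The type 17 sum was 3.004-fold with at least 2 CD3 UMIs, 3.08-fold with at least 500 genes per cell and 4.52-fold against only T cells with Cd4, Cd8 or Foxp3, where the type 1 sum was 1.41-fold. Without members that had Trac, the alpha and beta chain sum was 0.539-fold (0.600). A pseudocount of 50 left 92 genes past 2-fold over other T cells (42 higher, 50 lower) in place of 196, and 244 over NK cells (109 and 135) in place of 483. A minimum of 100 CPM left 107 (51 and 56) and 250 (109 and 141), and no minimum gave 427 (164 and 263) and 1043 (408 and 635). With each cell given equal weight the type 1 sum was 1.47-fold over other T cells and 0.0497-fold over NK cells, and without the cell of most UMIs in each group it was 1.49-fold. NK cells with Trdc were 3.36% at 500 UMIs a cell. Leaving out single cells was chosen after seeing the data, as was running the alternatives on single genes and on counts between the sides. Depth limits the type 1 side, where 3 UMIs make 48.6 CPM, and the 5 members with both sets, where they make 175.1.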
